A study of Mus musculus with 6 samples.

Results

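Genes of the interferon response and of RNA sensing were examined in mouse embryonic stem cells with and without knockdown of Trim71, a TRIM-NHL protein of pluripotent cells that binds RNA and can act as a ubiquitin ligase. The group was a list of 34 genes, chosen with earlier results of these data known. Of them, 31 had a probe set whose only annotated symbol was that gene, out of 19937 genes measured in this way. Isg15, Gbp2 and Sp110 had only probe sets that also name other genes, and no value is given for them. The list was divided by role into 6 sensor and adaptor genes, 8 receptors and transcription factors, and 20 induced effectors, of which 17 were measured.

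Each group had 3 single-colour Affymetrix arrays. The control arrays carried RNA of embryonic stem cells that the labels call wild-type, and the knockdown arrays carried RNA of embryonic stem cells labelled Trim71 KD. No strain, sex or cell line name is given in the sources used here. Per the labels' protocols, knockdown cells received a lipid reagent, Dharmafect1, with a mixture of 3 siRNAs against Trim71, and cells were collected 72 h later. The protocol also names a non-targeting siRNA, yet the array labels read wild-type and the series title reads parental. Whether the control cells were transfected is therefore not settled by the labels, and the exposure to siRNA and the loss of Trim71 cannot be told apart here. The labels do not say whether replicates were separate cultures, so p-values measure the spread between these arrays, which may be technical.

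Cells sense double-stranded RNA in the cytoplasm through the helicases RIG-I (gene Ddx58) and MDA5 (Ifih1), which signal through the mitochondrial adaptor MAVS, and in endosomes through the receptor TLR3. These routes activate the factors IRF3 and IRF7 and switch on interferon genes, and secreted interferon acts on the receptor pair IFNAR1 and IFNAR2. The receptor activates a complex that holds STAT2 and IRF9 and binds the interferon-stimulated response element in the promoters of the effector genes. Mouse embryonic stem cells are known for a weak interferon response and for expressing some Ifitm genes without added interferon.

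The promoters of the genes called below are printed to show where that element lies in them, with the promoters of Ifit1 and Ifit3, classical target genes that were not called, for comparison. The sequences are the 250 bases before the annotated start, read 5′ to 3′ on the gene's strand, from RefSeq on build GRCm38.p6, and capitals mark matches to GAAANNGAAA or its reverse complement TTTCNNTTTC.
Oas1a, chr5:120907526-120907775 (minus strand): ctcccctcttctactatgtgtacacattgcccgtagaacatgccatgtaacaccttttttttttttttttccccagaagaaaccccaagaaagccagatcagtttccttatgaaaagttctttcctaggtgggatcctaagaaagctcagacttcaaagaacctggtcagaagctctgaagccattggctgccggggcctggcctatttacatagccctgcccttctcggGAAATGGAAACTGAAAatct
Cxcl10, chr5:92348890-92349139 (minus strand): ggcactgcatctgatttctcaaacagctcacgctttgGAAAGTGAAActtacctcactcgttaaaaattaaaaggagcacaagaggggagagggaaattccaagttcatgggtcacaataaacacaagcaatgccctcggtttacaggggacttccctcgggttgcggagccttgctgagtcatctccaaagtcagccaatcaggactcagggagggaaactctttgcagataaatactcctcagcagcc
Oasl2, chr5:114896684-114896933 (plus strand): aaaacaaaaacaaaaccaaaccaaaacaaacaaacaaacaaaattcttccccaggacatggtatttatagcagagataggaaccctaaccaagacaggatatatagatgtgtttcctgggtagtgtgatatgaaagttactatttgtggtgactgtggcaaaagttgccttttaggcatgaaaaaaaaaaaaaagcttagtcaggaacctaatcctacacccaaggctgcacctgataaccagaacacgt
Ifitm3, chr7:141010745-141010994 (minus strand): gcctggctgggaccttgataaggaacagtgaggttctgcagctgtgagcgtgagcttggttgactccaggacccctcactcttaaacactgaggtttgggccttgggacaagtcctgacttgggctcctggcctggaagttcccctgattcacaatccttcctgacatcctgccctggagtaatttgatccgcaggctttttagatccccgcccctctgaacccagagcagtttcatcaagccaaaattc
Ddx58, chr4:40239826-40240075 (minus strand): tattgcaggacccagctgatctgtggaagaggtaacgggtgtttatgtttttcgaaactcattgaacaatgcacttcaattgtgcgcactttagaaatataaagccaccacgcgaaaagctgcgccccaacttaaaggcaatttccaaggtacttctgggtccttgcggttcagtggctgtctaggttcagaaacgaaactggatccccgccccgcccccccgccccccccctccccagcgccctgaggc
Ifit1, chr19:34640639-34640888 (plus strand): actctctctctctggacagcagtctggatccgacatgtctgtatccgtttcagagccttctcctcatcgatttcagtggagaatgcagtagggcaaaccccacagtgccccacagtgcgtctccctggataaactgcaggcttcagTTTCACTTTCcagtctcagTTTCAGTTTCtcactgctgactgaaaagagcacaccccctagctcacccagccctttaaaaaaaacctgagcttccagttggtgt
Ifit3, chr19:34583279-34583528 (plus strand): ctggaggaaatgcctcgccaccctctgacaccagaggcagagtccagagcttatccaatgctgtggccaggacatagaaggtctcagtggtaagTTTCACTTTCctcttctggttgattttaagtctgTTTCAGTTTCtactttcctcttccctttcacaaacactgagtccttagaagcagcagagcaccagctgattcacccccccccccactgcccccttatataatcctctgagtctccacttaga

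Oas1a held a pair of overlapping matches that ended 5 bases before the start, and Cxcl10 held 1 match that began 213 bases before it. The windows of Oasl2, Ifitm3 and Ddx58 held no match to these letters. Ifit1 held matches that began 104 and 85 bases before the start, and Ifit3 held matches that began 156 and 122 bases before it. Over all members, 30 genes had promoter windows in the table, all but Dhx58, Mx1, Mx2 and Usp18. A match stood in 11 of their 36 windows (30.6%), against 2.98% of the 32851 windows of all genes. The 11 genes were the effectors Ifit1, Ifit3, Isg15, Oas1a, Rsad2, Bst2, Ifitm2, Cxcl10 and Gbp2 and the transcription factor genes Irf2 and Stat2. None of the 5 sensor and adaptor genes with a window was among them. Of the measured members with a window, 2 of the 4 higher genes and 7 of the 22 uncalled genes held a match. The gamma-activated site TTCNNNGAA, which reads the same on both strands and is bound by STAT dimers, stood in 7 member windows (19.4%) and in 7.02% of all windows. The members' windows with this site were those of Eif2ak2, Ifnar2, Irf1, Irf2, Ifit2, Oas1a and Bst2. In Bst2 1 match of the response element overlapped a gamma-activated site, and no other member's did. A match is a description of the letters in the window and shows no binding. A window without a match does not show that the element is absent, as variant letters and bases outside the window were not searched.

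The comparison asked how these genes differed between knockdown and control cells. Trim71 itself was at 34.9% of its control level on the knockdown arrays (log2 difference −1.52 ± 0.045 SE, adjusted p = 2.8e-05 in limma). Among the 31 members, 4 induced effectors rose (Oas1a, Ifitm3, Cxcl10 and Oasl2), and 1 sensor gene fell, Ddx58. The other 26 members did not pass an adjusted p under 0.05 over all 19937 genes. The members called made up 16.1% of those measured, and 5.53% of all genes were called. Higher members were 12.9% against 3.39% of all genes, and lower members 3.23% against 2.15%. With 31 genes, these shares rest on 5 calls. As the list was chosen with earlier results of these data known, the comparison with all genes is descriptive only. The 4 higher members became 2, Oas1a and Ifitm3, whichever array was left out, with arrays centred on their medians and with all probe sets tested. The members' median log2 difference was 0.05, and that of all genes was 0.0048.

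**Figure D1:**
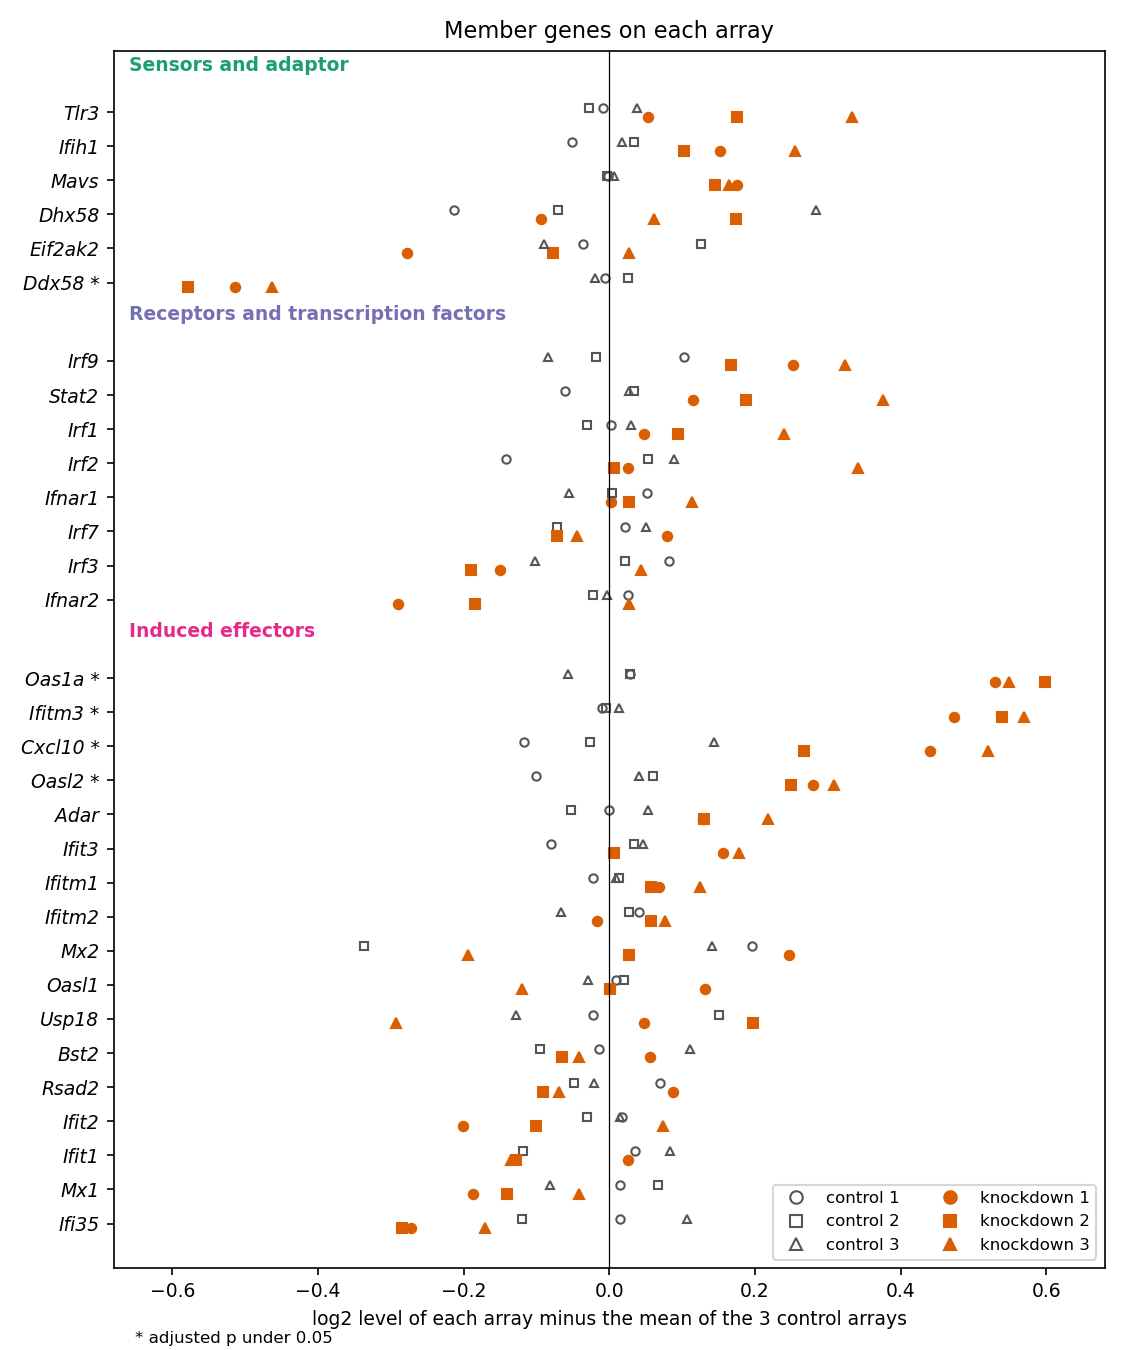
Log2 level of each measured member on each array (horizontal axis), less the mean of its 3 control arrays, by role. Open grey symbols are control arrays, filled orange symbols knockdown arrays, and an asterisk marks an adjusted p under 0.05. The knockdown arrays of Oas1a, Ifitm3, Cxcl10 and Oasl2 lie to the right of all their control arrays and those of Ddx58 to the left.

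Levels of array data are given on the log2 scale after RMA, so a difference of 1 is a doubling of signal, and signal is not comparable between genes. All arrays had medians from 6.26 to 6.31. Knockdown array 3 stood apart from the others, with an upper quartile of 8.42 against 8.32 to 8.35 and a root mean square deviation from its group's gene means of 0.115 against 0.0666 to 0.0914. It read highest of the knockdown arrays for 21 of the 31 members (67.7%) and for 48.7% of all genes. The 8 embryonic stem cell markers checked had mean log2 levels from 10.10 to 12.96, all above the upper quartile of gene means, 8.66. Their summed linear signal moved with the higher members, at 32112 to 33036 on control and 33935 to 35181 on knockdown arrays. Of the 8, 5 (62.5%) had groups that did not overlap, with the knockdown arrays higher, as had 14.7% of all genes. Zfp42 alone was called higher (0.25 ± 0.045 SE, adjusted p = 0.0232 in limma), which is 12.5% of the 8 against 3.39% of all genes. Summed linear signal of 12 fibroblast or feeder cell markers was 4681 to 4753 on control and 4020 to 4146 on knockdown arrays. Of the 12, 1, Vim, was called lower (8.33%, against 2.15% of all genes). Without Vim, left out after its call was seen, the sums were 658 to 724 and 639 to 720. For 9 blood cell markers the sums were 1031 to 1062 and 1168 to 1255, with Cd68 called higher (11.1%, against 3.39% of all genes). Without Cd68, left out in the same way, they were 341 to 356 and 340 to 354. Of 7 primitive endoderm markers, 0 were called by limma, against 5.53% of all genes. An unadjusted p under 0.05 was found for 0 of them, against 19% of all genes. Their sums lay apart, at 609 to 640 on control and 578 to 607 on knockdown arrays. The groups did not overlap for 0 single markers of this list, against 25.5% of all genes. The part of these markers in the members' values was not tested.

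Among the sensors, Ddx58 fell and the others did not pass the test. Ddx58 encodes RIG-I, the helicase that binds short double-stranded RNA with 5′ phosphates. It read 10.28, 10.31 and 10.26 on the control arrays and 9.77, 9.71 and 9.82 on the knockdown arrays. Every knockdown array lay below every control array, and the gap between groups was wider than the spread within either. The mean went from 10.28 ± 0.023 (SD, n = 3) to 9.77 ± 0.057 (SD, n = 3), which left 69.8% of the control signal. The log2 difference was −0.52 ± 0.050 SE (95% confidence interval −0.63 to −0.40, adjusted p = 0.00288 in limma). It stayed called in all 6 fits that left out 1 array, with differences from −0.55 to −0.49 and adjusted p-values up to 0.0233.

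Ifih1 encodes MDA5, the helicase for long double-stranded RNA. It read 4.23, 4.32 and 4.30 on control and 4.43, 4.38 and 4.54 on knockdown arrays, a log2 difference of 0.17 ± 0.057 SE that did not pass (adjusted p = 0.153 in limma). The groups did not overlap, and the signal lay below 5.02, the lower quartile of all gene means. Dhx58 encodes LGP2, a helicase that modulates both of the others. Its control arrays read 4.68, 4.83 and 5.18 and its knockdown arrays 4.80, 5.07 and 4.96, so the groups overlapped and the difference of 0.05 had an interval from −0.25 to 0.35.

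Tlr3, the endosomal receptor for double-stranded RNA, read 5.32, 5.31 and 5.37 on control and 5.39, 5.51 and 5.67 on knockdown arrays. Its difference of 0.19 ± 0.074 SE did not pass (adjusted p = 0.223 in limma), and the highest value was that of knockdown array 3. Mavs, the adaptor through which both helicases signal, read 9.11, 9.11 and 9.12 on control and 9.29, 9.26 and 9.27 on knockdown arrays. These were the narrowest groups of the sensor and adaptor genes, with no overlap and SDs of 0.0051 and 0.015. The difference was 0.16 ± 0.043 SE. It had an adjusted p of 0.083 in limma and is not counted as a change. It was called with a trended and robust prior, with array weights and among the brighter genes alone, where the lowest adjusted p was 0.016. Mavs was called in 0 of the 6 fits that left out 1 array, with adjusted p-values in limma from 0.0809 to 0.261. With the replicate block its adjusted p was 0.232.

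Eif2ak2 encodes PKR, a kinase that halts translation when it binds double-stranded RNA, and is itself induced by interferon. It read 7.38, 7.54 and 7.32 on control and 7.13, 7.33 and 7.44 on knockdown arrays. The groups overlapped, and the difference of −0.11 had an interval from −0.32 to 0.10. Of the 6 sensor and adaptor genes, 4 had groups that did not overlap (3 higher and 1 lower), as did 25.5% of all genes. Their median log2 difference was 0.10, with Ddx58 at the low end and Tlr3 at the high end.

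**Figure D2:**
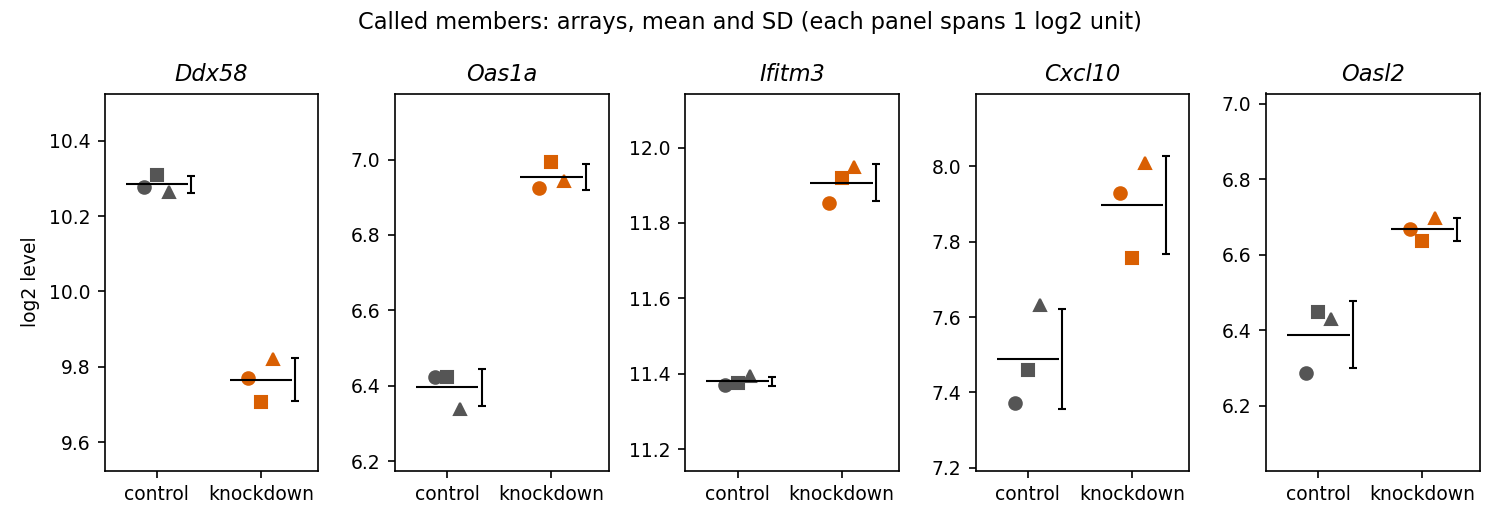
Log2 levels (vertical axis) of the 5 called members on each control (grey) and knockdown (orange) array, with the mean as a horizontal line and the SD as a bar beside it. Each panel spans 1 log2 unit. The groups of Ddx58, Oas1a and Ifitm3 are about 0.5 apart, and those of Cxcl10 spread most.

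None of the 8 receptor and transcription factor genes passed the test in limma, against 5.53% of all genes. Of the 8, 2, Irf9 and Stat2, had an unadjusted p under 0.05, as had 19% of all genes. Under the alternatives tried, Irf9 was called with a trended and robust prior and among the brighter genes alone, Ifnar2 was called without knockdown array 3, and the other 6 were called by none. Irf9 encodes the DNA-binding subunit of the STAT complex. It read 7.71, 7.59 and 7.52 on control and 7.86, 7.77 and 7.93 on knockdown arrays, a difference of 0.25 ± 0.067 SE (adjusted p = 0.0854 in limma). Its groups did not overlap. Stat2, the partner of IRF9 in that complex, read 7.79, 7.89 and 7.88 on control and 7.97, 8.04 and 8.23 on knockdown arrays. The difference was 0.23 ± 0.074 SE (adjusted p = 0.145 in limma) and the groups lay apart, with knockdown array 3 the highest.

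Irf1, a transcription factor that interferon induces, read 7.81, 7.78 and 7.84 on control and 7.86, 7.91 and 8.05 on knockdown arrays. The groups did not overlap, but the difference of 0.13 had an interval from −0.02 to 0.27. A second probe set of Irf1, with lower signal, gave −0.04 with groups that overlapped, so its probe sets disagreed in sign. Irf2, an antagonist of IRF1 at shared sites, read 5.42, 5.62 and 5.66 on control and 5.59, 5.57 and 5.91 on knockdown arrays. Those groups overlapped (difference 0.12, interval −0.12 to 0.37).

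Irf3, the factor that the sensors activate first, read 7.48, 7.42 and 7.29 on control and 7.25, 7.21 and 7.44 on knockdown arrays. The groups overlapped, with a difference of −0.10 and an interval from −0.28 to 0.08. Irf7, the factor that amplifies interferon transcription, read 4.83, 4.74 and 4.86 against 4.89, 4.74 and 4.77. Its difference of −0.01 had an interval from −0.15 to 0.13, at a signal below the lower quartile of gene means.

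The receptor subunit genes had mean levels of 8.79 (Ifnar1) and 8.47 (Ifnar2), above the median of gene means, 6.70. Ifnar1 read 8.82, 8.77 and 8.71 on control and 8.77, 8.79 and 8.88 on knockdown arrays, a difference of 0.05 with an interval from −0.08 to 0.17. Ifnar2 read 8.57, 8.52 and 8.54 on control and 8.26, 8.36 and 8.57 on knockdown arrays. Knockdown array 3 lay at the level of the controls and the other two lay below them. The difference was −0.15 ± 0.081 SE (adjusted p = 0.387 in limma) with all arrays and −0.24 without knockdown array 3, where it was called lower (adjusted p = 0.049). Over the 8 genes the differences ran from −0.15 to 0.25 with a median of 0.09.

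**Figure D3:**
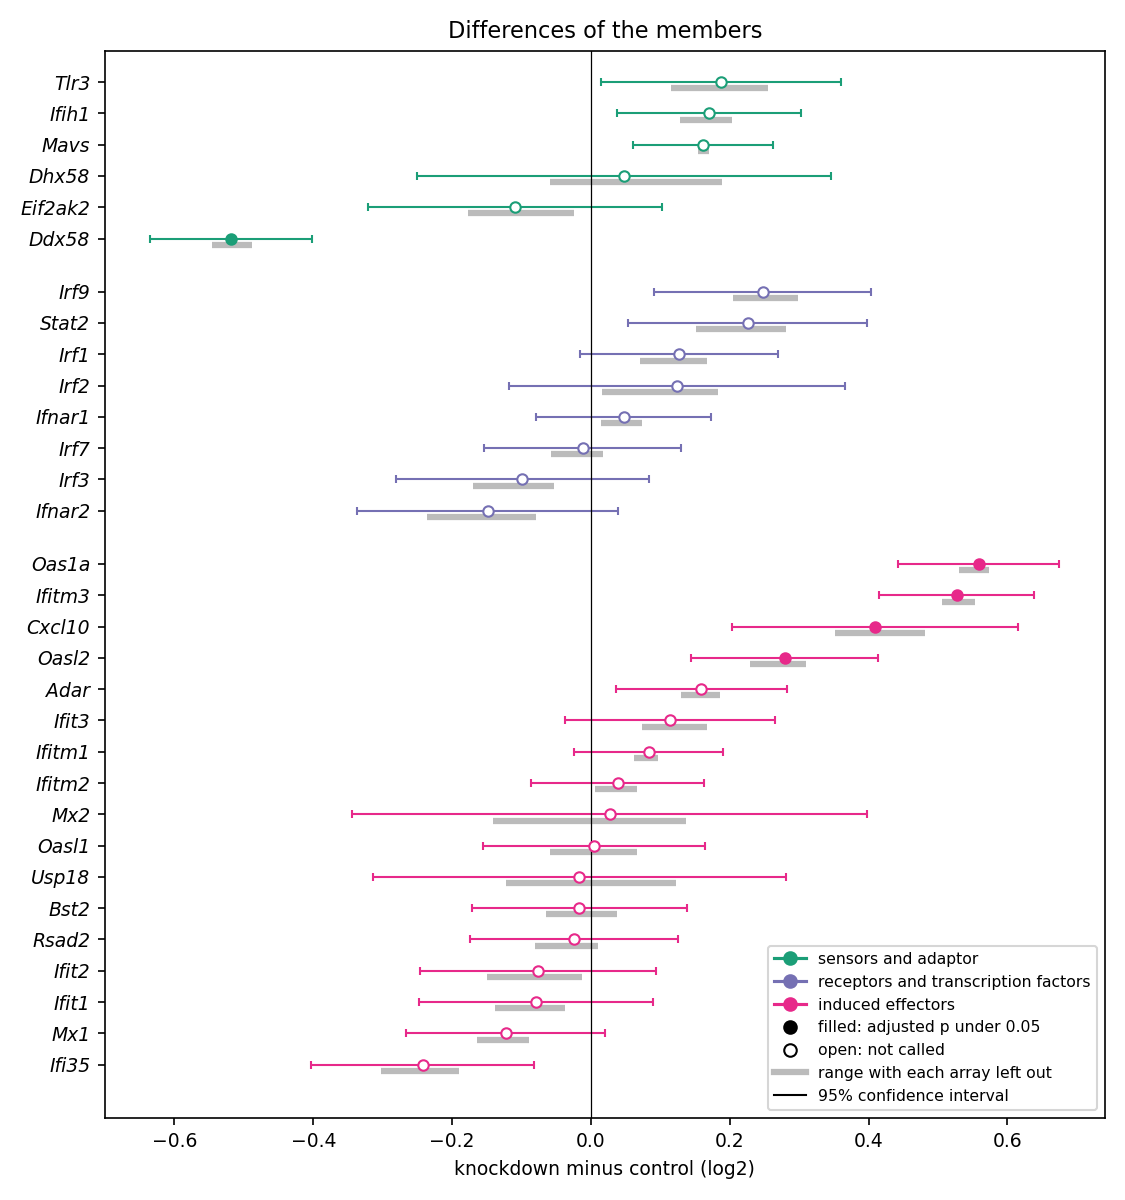
Difference between knockdown and control (horizontal axis, log2) for each measured member, with its 95% confidence interval, by role. Filled points have an adjusted p under 0.05, and grey bars span the differences obtained with each array left out. The 5 filled points lie at −0.52 and between 0.28 and 0.56, and all other points lie between −0.24 and 0.25.

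Of the 17 measured effectors, 4 rose (23.5%, against 3.39% of all genes), 0 fell (against 2.15%) and 13 did not pass. Their median log2 difference was 0.03, and 10 were above 0 and 7 below. Oas1a encodes an oligoadenylate synthetase that activates the ribonuclease RNase L when it binds double-stranded RNA. It read 6.42, 6.42 and 6.34 on the control arrays and 6.93, 6.99 and 6.94 on the knockdown arrays. Every knockdown array was higher than every control array by a margin far wider than either group's spread. The mean rose from 6.40 ± 0.049 (SD, n = 3) to 6.95 ± 0.035 (SD, n = 3), or 1.47-fold (log2 difference 0.56 ± 0.050 SE, adjusted p = 0.0021 in limma). It stayed called with any array left out, with adjusted p-values up to 0.0185. Another probe set names Oas1a together with other genes, and its close copy Oas1g had no probe set with 1 symbol, so the share of this signal that comes from related genes is not known.

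The Oas-like genes encode relatives of these synthetases. Oasl2 read 6.29, 6.45 and 6.43 on control and 6.67, 6.64 and 6.70 on knockdown arrays, a rise of 1.21-fold (0.28 ± 0.058 SE, adjusted p = 0.0367 in limma). The groups did not overlap, but Oasl2 lost the call whichever array was left out, with adjusted p-values from 0.0606 to 0.132, with arrays centred on their medians and with all probe sets tested. Oasl1 read 7.001, 7.012 and 6.963 on control and 7.123, 6.993 and 6.872 on knockdown arrays, and these groups overlapped (difference 0.0043, interval −0.16 to 0.16). Ratios of 3 related pairs were taken within each array, which removes its scaling. The pairs were chosen after the calls were seen. The log2 ratio of Oas1a to Oasl1 was −0.62 to −0.58 on control and −0.20 to 0.07 on knockdown arrays, a shift of 0.55 (p = 0.1 by exact two-sided permutation, the lowest that 3 against 3 arrays allow, and 0.1 after adjustment over the 3 pairs). An unequal change of a pair does not show that Oasl1 stayed the same.

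The Ifitm genes encode small membrane proteins that hinder the entry of viruses, and Ifitm1, Ifitm2 and Ifitm3 lie close together on chromosome 7. Ifitm3 rose and the other two did not pass. Ifitm3 read 11.37, 11.38 and 11.39 on control and 11.85, 11.92 and 11.95 on knockdown arrays. The control arrays were nearly equal, and each knockdown array was well above them. Its mean went from 11.38 ± 0.012 (SD, n = 3) to 11.91 ± 0.049 (SD, n = 3), which is 1.44-fold (0.53 ± 0.048 SE, adjusted p = 0.00216 in limma). It stayed called with any array left out, with adjusted p-values up to 0.0213.

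Ifitm1 read 12.24, 12.28 and 12.28 on control and 12.33, 12.32 and 12.39 on knockdown arrays. The groups lay just apart, and the difference of 0.08 had an interval from −0.02 to 0.19. The other probe set of Ifitm1 gave 0.13 (adjusted p = 0.366 in limma over all 34760 probe sets). Ifitm2 read 11.74, 11.73 and 11.63 against 11.68, 11.76 and 11.78, with a difference of 0.04, and its other probe sets gave 0.04 and 0.03. The groups of the other Ifitm1 set, and of the other Ifitm2 set that gave 0.04, also lay apart, with the knockdown arrays higher. Among all genes, 14.7% lay apart and higher. The 5 probe sets of Ifitm1 and Ifitm2 thus moved by 0.03 to 0.13, where that of Ifitm3 moved by 0.53.

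The ratio of Ifitm3 to Ifitm1 within an array shifted by 0.44, from between −0.90 and −0.87 on control to between −0.48 and −0.40 on knockdown arrays. The ratio of Ifitm3 to Ifitm2 shifted by 0.49, from between −0.37 and −0.24 to between 0.16 and 0.17. In each ratio the groups were far apart, with p = 0.1 by exact two-sided permutation, again the floor (0.1 after adjustment). The sequence likeness of these genes could let probes of 1 read transcripts of another, and that was not tested.

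**Figure D4:**
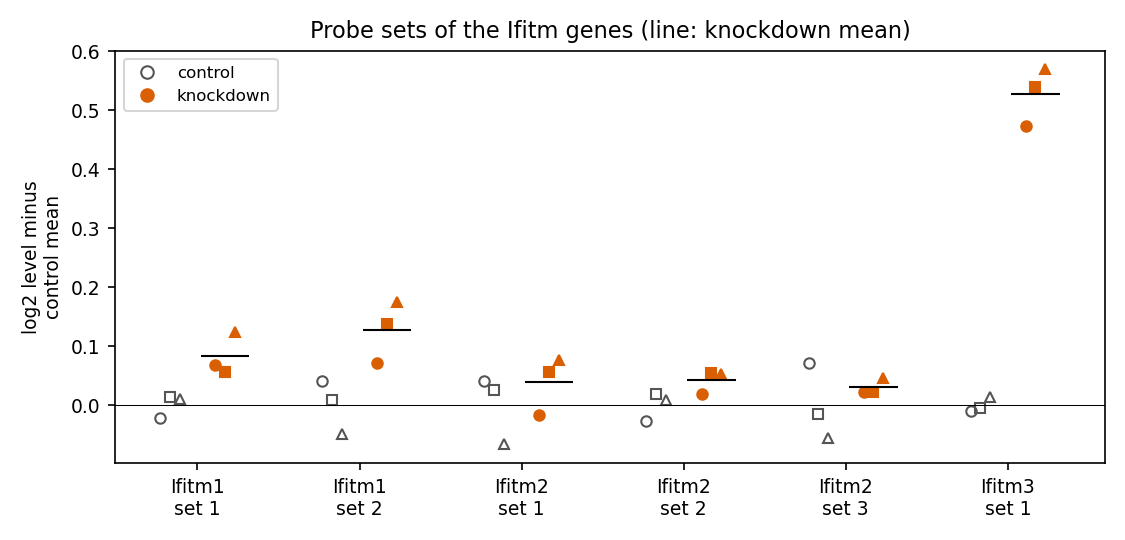
Log2 level of each array less the control mean (vertical axis) for the 6 probe sets that name Ifitm1, Ifitm2 or Ifitm3 alone. Open grey symbols are control arrays, filled orange symbols knockdown arrays, and the short line is the knockdown mean. Ifitm3 stands at 0.53 and the other sets at 0.03 to 0.13.

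Cxcl10 encodes a chemokine that draws T cells and is induced by interferons and by NF-κB. It read 7.37, 7.46 and 7.63 on control and 7.93, 7.76 and 8.01 on knockdown arrays. The groups did not overlap, yet each spread more than those of Oas1a and Ifitm3, with SDs of 0.132 and 0.129. The rise was 1.33-fold (0.41 ± 0.088 SE, adjusted p = 0.0413 in limma). It kept its direction but lost the call in each of the 6 fits to 5 arrays, with adjusted p-values from 0.0529 to 0.154, with arrays centred on their medians and with all probe sets tested.

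Adar, the enzyme that edits adenosine to inosine in double-stranded RNA, read 8.13, 8.07 and 8.18 on control and 8.26, 8.26 and 8.34 on knockdown arrays. The groups lay apart, with a difference of 0.16 ± 0.053 SE (adjusted p = 0.15 in limma), and it was called among the brighter genes alone (adjusted p = 0.046). Ifi35, an interferon-induced leucine zipper protein, went the other way, at 6.59, 6.46 and 6.69 on control and 6.31, 6.29 and 6.41 on knockdown arrays. Those groups did not overlap either, and the difference of −0.24 ± 0.069 SE did not pass (adjusted p = 0.0994 in limma). Bst2, which encodes tetherin, a protein that holds budding virus at the cell surface, read 7.75, 7.67 and 7.88 against 7.82, 7.70 and 7.73. Its groups overlapped, with a difference of −0.02 and an interval from −0.17 to 0.14.

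Of the 17 measured effectors, 7 had means below the lower quartile of gene means. The genes Ifit1, Ifit2 and Ifit3, whose proteins bind foreign RNA or the complex that does so, had control means of 4.38, 4.46 and 3.98. Their knockdown means were 4.30, 4.39 and 4.09, with groups that overlapped and differences of −0.08, −0.08 and 0.11. Mx1, a GTPase that traps viral particles, had means of 3.40 and 3.27 and a difference of −0.12, and its relative Mx2 had one of 0.03 with an interval from −0.34 to 0.40.

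Rsad2, which encodes viperin, an enzyme that makes a chain-terminating nucleotide, had means of 4.85 and 4.83. Usp18, a protease that removes ISG15 from proteins and damps receptor signals, had means of 4.97 and 4.95. All of these overlapped between groups. In all, 10 of the 31 members had means below the lower quartile of gene means, 5.02. Of these 10, 0 were called in limma, against 5.53% of genes at all levels, and 1, Ifih1, had an unadjusted p under 0.05. No detection call accompanies the values, and whether these transcripts were present was not determined. Of the 16 members above the median of gene means, 6.70, 2 were higher (12.5%) and 1 lower (6.25%). Over genes at all levels these shares were 3.39% and 2.15%. Shares of all genes at matching levels were not computed for this fit, for the bright or the dim members. These comparisons therefore do not separate the members from their level. In a fit to the 9968 genes above the median level alone, 19% of those genes were called. Of the 16 members in it, 5 were higher and 1 lower.

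**Figure D5:**
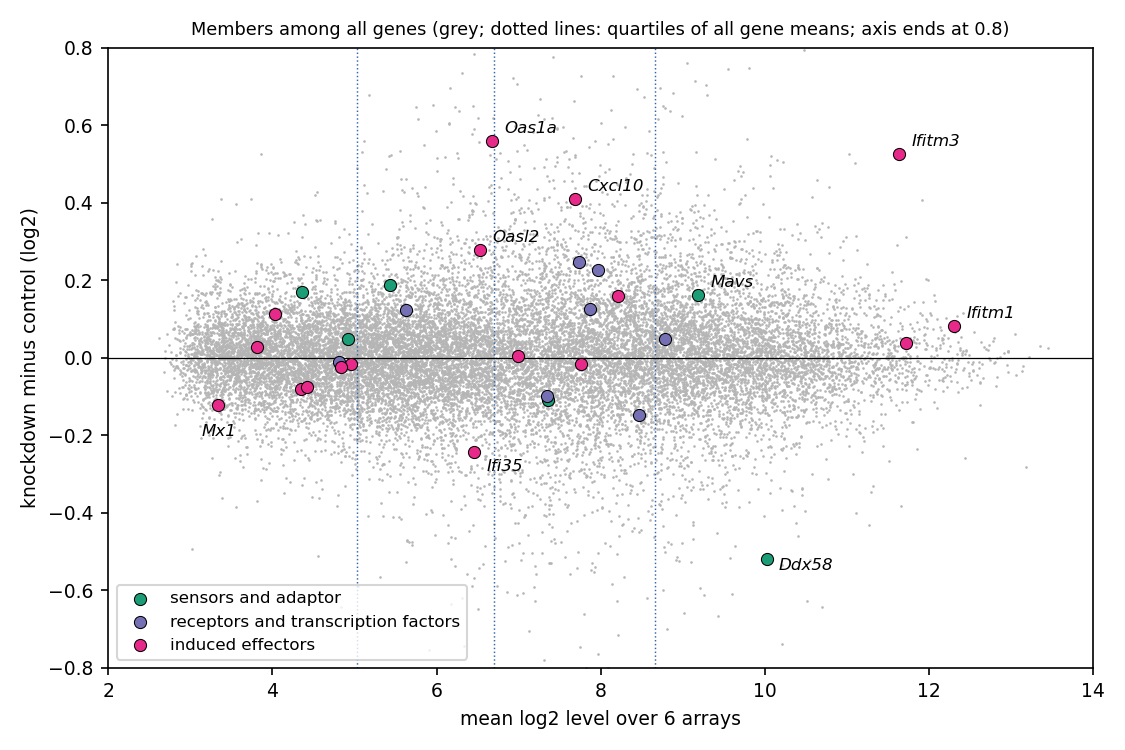
Difference between knockdown and control (vertical axis, log2) against mean log2 level over the 6 arrays (horizontal axis). Grey points are the 19937 genes, without those past the ends of the vertical axis at 0.8 either way, coloured points the 31 members by role, and dotted lines the quartiles of all gene means at 5.02, 6.70 and 8.66. Members left of the first line lie between −0.12 and 0.17.

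Counting all members, 14 of 31 (45.2%) had groups that did not overlap, against 25.5% of all genes. Of these, 12 were higher (14.7% of all genes) and 2 lower (10.8% of all genes). The 12 higher genes included 8 that did not pass the test, Ifih1, Tlr3, Mavs, Irf1, Irf9, Stat2, Ifitm1 and Adar, and the lower pair was Ddx58 and Ifi35. The median SD of the members was 0.061 on control and 0.091 on knockdown arrays, against 0.059 and 0.085 for all genes. The uncalled members had differences from −0.24 to 0.25, and their 95% confidence intervals ran within −0.40 to 0.40.

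Other genes of the pathway were read from a pair of further lists. Of 46 other sensing and signalling genes, 43 were measured, 2 were higher and 0 lower in limma (4.65% called, against 5.53% of all genes). An unadjusted p under 0.05 was found for 13, and for 19% of all genes. Groups did not overlap for 15 (34.9%, against 25.5% of all genes), 6 of them higher and 9 lower. Among all genes, 14.7% lay apart and higher and 10.8% apart and lower. The median difference of the list was 0.02. Ifngr2, a subunit of the receptor for interferon gamma, read 8.92, 8.86 and 8.93 on control and 9.32, 9.25 and 9.30 on knockdown arrays, a rise of 0.38 ± 0.049 SE (adjusted p = 0.00735 in limma) that stayed called with any array left out. Ticam1, the adaptor of TLR3, read 7.06, 7.01 and 6.90 on control and 7.23, 7.32 and 7.21 on knockdown arrays, a rise of 0.27 ± 0.059 SE (adjusted p = 0.0452) that stayed called in 1 of 6 such fits. The list holds 5 interferon genes, described here after their values were seen. None of Ifnb1, Ifna4, Ifng, Ifnk and Ifne was called in limma, against 5.53% of all genes. An unadjusted p under 0.05 was found for 1, Ifng, and for 19% of all genes. Of the 5 genes, only Ifng had groups that did not overlap (20%, against 25.5% of all genes), with the knockdown arrays lower. The differences of the 5 genes were −0.16 for Ifnb1, 0.10 for Ifna4, −0.27 for Ifng, −0.0026 for Ifnk and 0.017 for Ifne. All 5 had means below the lower quartile of gene means.

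Of 80 other interferon-induced genes, 71 were measured, 4 were higher (5.63%, against 3.39% of all genes) and 2 lower (2.82%, against 2.15%). Groups did not overlap for 23 (32.4%, against 25.5% of all genes), 13 of them higher and 10 lower. The median difference was −0.0016. The higher genes were Isg20, an exonuclease, at 0.38, Gbp7, a guanylate-binding protein, at 0.34, Pml, the organiser of nuclear bodies, at 0.33, and Tap1, a peptide transporter for antigen presentation, at 0.31. The lower genes were Parp9 at −0.38 and Parp14 at −0.35, which belong to the family of ADP-ribosyltransferases. Pml read 10.50, 10.53 and 10.46 on control and 10.79, 10.84 and 10.86 on knockdown arrays (adjusted p = 0.0114 in limma). Parp9 read 7.47, 7.53 and 7.51 on control and 7.11, 7.02 and 7.25 on knockdown arrays (adjusted p = 0.0194 in limma). The groups of these genes lay apart. Pml stayed called in 3 of the 6 fits to 5 arrays, Parp14 in 2, Parp9 and Gbp7 in 1 each, and Tap1 and Isg20 in 0. The highest adjusted p among these fits was 0.165, that of Gbp7.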

How the data were processed

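RNA was measured on 6 single-colour arrays, 3 control and 3 knockdown. Per the labels' protocols, the input was 100 ng of total RNA, amplified as sense-strand cDNA and labelled with biotin. The values used are the log2 expression values per probe set that the authors deposited. Per the submitters' processing notes they were made with RMA and the affy package, each named with no version. Such values are background-corrected, quantile normalized between arrays and summarized over probes, which hides any change common to most genes.

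Of 34760 probe sets, 21640 had 1 gene symbol in GEO's platform annotation, which can be old, 1321 had several and 11799 were unnamed here. All 31 measured members matched a RefSeq gene by Entrez identifier, and 0 symbols differed. The probe set with the highest mean stood for a gene, and no intensity filter was applied. A linear model with group as its only term was fitted to 19937 genes by lmFit and eBayes (limma 3.58.1, R 4.3.3), after it had been tested on simulated data. For each gene the simulated noise had the same spread on all arrays, so that test did not cover the wider spread of knockdown array 3. Benjamini-Hochberg adjustment ran over all genes, with calls at an adjusted p under 0.05. Within-array ratios were compared by exact permutation of the 6 arrays. Promoters were read with Python 3.11.15 and pandas 2.3.3, and plots drawn with matplotlib 3.10.9.

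The labels do not say whether replicate numbers pair the arrays, and the main model did not pair them. The members and lists were chosen with earlier results of these data known. Named genes are Trim71, all members, and the called genes of the further lists, up to 6 a list. The 5 interferon genes and the called marker genes were named after their values were seen. The alternatives tried were the replicate block, each array left out, other scalings, priors, array weights, probe set rules, a level filter and a stricter threshold. The number of arrays limits the precision.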

Additional observations from a re-analysis of the deposited data

How the results depend on the processing

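The count of 4 higher members became 2, Oas1a and Ifitm3, with the replicate block, with arrays centred on their medians, with all 34760 probe sets tested and at an adjusted p under 0.01, and 2 with each array left out in turn (range 2 to 2). It became 7 with a trended and robust prior, which added Mavs, Irf9 and Ifitm1, 5 with array weights, which added Mavs, and 5 of the 16 members above the median level, Cxcl10, Ifitm3, Mavs, Irf9 and Adar. The 1 lower member, Ddx58, became 2 with array weights, which added Ifi35, and was 1 to 2 with an array left out, with Ifnar2 added without knockdown array 3. Oas1a, Ifitm3 and Ddx58 were called under each alternative that tested them, except that the genes above the median level do not hold Oas1a. Calls over all genes moved too, from 675 higher and 428 lower to 171 and 108 with the replicate block, 527 and 616 with centred arrays, 779 and 763 with quantile normalization repeated, and 603 and 699 without knockdown array 3. Left-out arrays otherwise gave 148 to 449 higher and 101 to 205 lower genes. Higher and lower genes numbered 1213 and 854 with the trended prior, 1114 and 1058 with array weights, 1124 and 766 of 9968 genes above the median level, and 266 and 134 of all probe sets. Same-numbered arrays had deviations from their group means that correlated at −0.02, −0.15 and −0.24. With means of only 3 arrays, these values do not settle whether the arrays were paired. The main model did not take the numbers as pairs. Members near 0 changed sign without a call. Oasl1 went to −0.020 with quantile normalization repeated and to −0.026 with centred arrays, Mx2 to −0.0034 with centred arrays and Usp18 to 0.095 with array weights. With an array left out, Dhx58 ran from −0.059 to 0.189, Irf7 from −0.058 to 0.018, Oasl1 from −0.059 to 0.066, Mx2 from −0.141 to 0.137, Usp18 from −0.123 to 0.122, Rsad2 from −0.080 to 0.010 and Bst2 from −0.064 to 0.038. Fits without an array used fewer arrays, and the fit to all probe sets tested more features. The cause of the lost calls was not tested. Background signal and detection were not measured here, so what could be seen of the dim members is not known.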
